A study of Mus musculus with 6 samples.

Results

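Spermatogonial stem cells (SSC), prepared from the testes of CD1 mice aged 6 days, gave a detected signal for 8689 of the 19053 genes that the array could read, or 45.6%. A gene was counted when 1 of its probes had a detection p-value under 0.01 on all 3 SSC arrays, and the brightest such probe gave its level. The level is the mean background-corrected and normalized log2 signal of the 3 arrays, and genes were ranked by it. Counts of detected genes in the gene lists below are to be read against the 45.6% of all genes. The study compared SSC with female germline stem cells (FGSC) from ovaries of CD1 mice aged 3 days, on 3 arrays as well. The labels name no mutation, transgene or treatment in either group. They do not tell how the cells were sorted or cultured, nor whether replicates are separate animals or isolations, so any spread or p-value covers these arrays only and may be technical.

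Spermatogonial stem cells are the few germ cells of the testis that both renew themselves and give rise to all later stages of sperm production. In the newborn testis, germ cells lie inside cords of Sertoli cells, which supply the growth factor GDNF. GDNF acts through the receptor tyrosine kinase RET and its co-receptor GFRA1, and keeps transcription factors such as ETV5, BCL6B, ID4 and EGR2 active in the stem cells. Retinoic acid later drives spermatogonia to differentiate and to enter meiosis.

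The SSC arrays detected between 15300 and 16437 of the 45281 probes, with median raw signals of 95.8 to 98.5. A signal near that median is background. Of the 14498 probes detected on all 3 arrays, 1920 had no gene name here. A probe's signal depends on how well it binds its target as well as on how much RNA is there, so the rank orders probe signals and does not order transcript numbers. At least 2 detected probes were present for 2826 detected genes. The 2 brightest probes of such a gene lay a median of 0.91 log2 units apart, and 11.5% of the genes had a gap above 3. For the same reason a gene that was not detected was not shown to be silent. Rpsa and Rps20, which encode parts of every ribosome, were not detected. In bulk RNA, fewer cells of a type and less RNA per cell cannot be told apart.

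The signals of 330 probes were irregular, and they bear on several germ cell genes. A detection p-value can only fall as the signal rises, but 329 of these probes broke that order on at least 1 of the 6 arrays. On 20 probes some signals were written with 9 or more significant digits. In SSC, 167 detected genes were read from an irregular probe, and each such gene with a value below is marked. Without the irregular probes 8553 genes were detected. The origin of these signals was not tested.

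Levels ran from 4.83 to 13.65, with a median of 6.85 and quartiles of 5.71 and 8.26. Most detected genes were dim: 2729 lay below 6, 4536 between 6 and 9, 1356 between 9 and 12, and 68 at 12 or above. The signal was spread over many genes. The 10 highest genes held 3.65% to 3.74% of the summed linear signal of an array, the 100 highest 19.9% to 20%, and the 1000 highest 61.2% to 61.5%. Just inside the detection limit were Pop1, Lrrc40 and Lrmp, at levels of 5.16, 5.10 and 5.04 and with a highest detection p-value of 0.00962. Just outside were Kif16b, Slc39a3 and Ndfip2, at 5.06, 5.04 and 5.0 and with a highest p-value of 0.01068. The levels on both sides of the limit overlap.

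**Figure D1:**
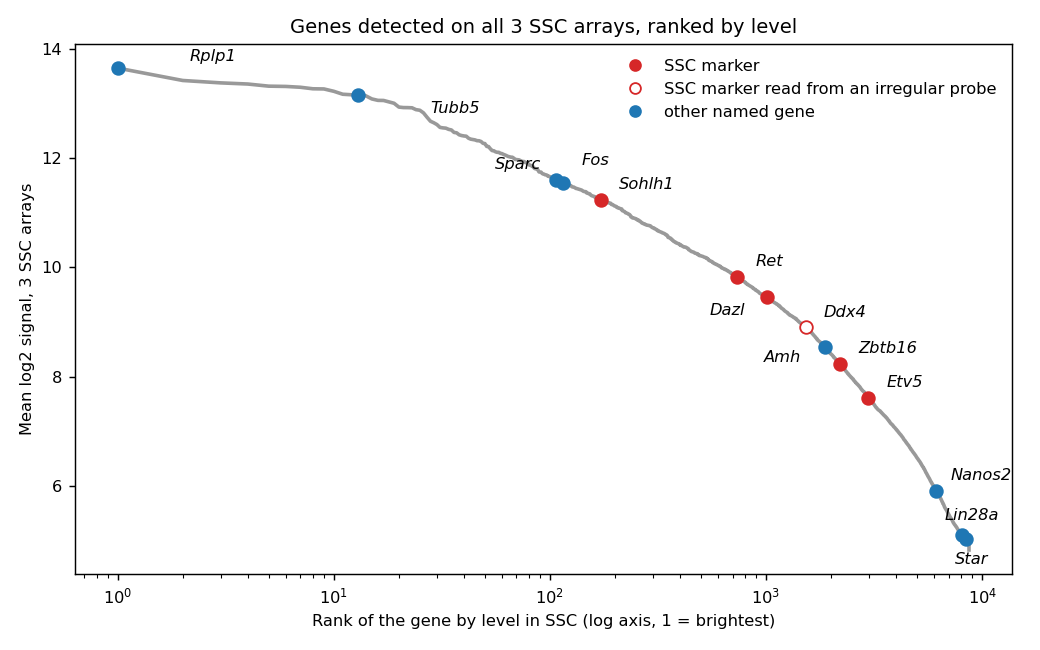
Level of each gene detected in SSC (mean log2 signal of 3 arrays) against its rank on a log axis, with the 6 population markers in red and other named genes in blue. The curve falls from 13.65 for Rplp1 to 4.83, and the markers lie between rank 172 (Sohlh1) and rank 2963 (Etv5), with Ddx4 drawn open because its probe is irregular.

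The highest signals came from genes of protein synthesis, histone H2A, energy metabolism and the cytoskeleton. Among the 25 highest genes, 13 encode ribosomal proteins and 5 encode histone H2A. The others included Eef1a1, which brings transfer RNA to the ribosome, Atp5b, a catalytic subunit of the mitochondrial ATP synthase, CYTB of the mitochondrial genome, Tubb5, a beta-tubulin, and Actb, beta-actin. Rplp1, a protein of the ribosomal stalk, ranked highest at 13.65 on each SSC array. Quantile normalization gives the brightest probe of every array the same value, so this lack of spread is built in. Eef1a1 stood at 13.55, 13.31 and 13.28 on SSC replicates 1 to 3. Tubb5 stood at 13.20, 13.19 and 13.08. The 3 arrays gave nearly the same level for each of these genes.

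The ribosomal genes of the 25 highest were Rplp1, Rps2 (13.32 ± 0.05, SD, n = 3), Rpl41 (13.31 ± 0.06), Rps29, Rpl38, Rps12, Rpl23, Rps24, Rps9, Rpl9, Rps19, Rpl35 and Rpl37 (12.88 ± 0.11). Of 61 ribosomal protein genes with a probe, 53 were detected, against 45.6% of all genes. Their median level was 11.97, 11.95 and 12.03 on SSC replicates 1 to 3, at percentile 99.2 of the detected genes, where the median of all detected genes is 6.85. Together they held 7.85% to 7.98% of the summed signal of each array. The range was wide: Rps4x, read from an irregular probe, stood at 5.45 ± 0.94 and Rpl21 at 4.98 ± 0.06. Ubb-ps, a ubiquitin pseudogene, ranked 12th at 13.16 ± 0.07. It is nearly identical to Ubb, so its signal cannot be assigned to 1 of them.

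Gstm2, a glutathione S-transferase that joins glutathione to reactive compounds, ranked 8th. It stood at 13.24, 13.34 and 13.22 on SSC replicates 1 to 3, all well above the 8.80, 8.84 and 9.35 of FGSC replicates 1 to 3. Genes taken for a high SSC level tend to lie above FGSC, so the FGSC values of the top genes are given as a description. Gstm1, its close relative, stood at 11.20 ± 0.14 against 6.06 ± 0.07 in FGSC. The Gstm genes are similar in sequence, so a probe may read more than 1 of them.

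The H2A genes H2ac24 (13.42 ± 0.07), H2ac20 (13.36 ± 0.09), H2ac13 (13.30 ± 0.06), H2ac10 (13.27 ± 0.02) and H2ac7 (13.17 ± 0.05) took ranks 2, 4, 7, 9 and 11. H2A packages DNA together with the other core histones, and its replication-dependent genes are made mostly in S phase. These genes are near-identical copies, so the values may rest on shared transcripts and do not count as independent members. Beyond these genes the histones were not uniformly bright. Of 81 with a probe 48 were detected, with a median of 7.37 and with H4c8 and H3c3 at 4.98 and 4.97.

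The promoters of the H2A genes share the CCAAT box, CCAAT or ATTGG by strand. The sequences below are shown because they carry this shared feature, next to the promoters of 2 germ cell genes and of Fos, which are described further on. Each is the stretch of 160 bases just before the annotated start in RefSeq, on the gene's strand, in GRCm38.p6. Capitals mark CCAAT boxes, the TATA box (TATAAA on the gene's strand) and GC boxes (GGGCGG or CCGCCC).
H2ac20 (chr3:96220881-96221040, minus strand): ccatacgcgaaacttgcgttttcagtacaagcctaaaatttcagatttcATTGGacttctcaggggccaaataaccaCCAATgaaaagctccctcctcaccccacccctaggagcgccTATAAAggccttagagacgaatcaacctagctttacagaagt
H2ac13 (chr13:21716252-21716411, plus strand): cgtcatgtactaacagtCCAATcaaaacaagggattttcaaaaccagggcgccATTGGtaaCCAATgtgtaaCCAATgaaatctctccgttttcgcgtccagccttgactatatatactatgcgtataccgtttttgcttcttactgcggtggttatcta
Sohlh1 (chr2:25847249-25847408, minus strand): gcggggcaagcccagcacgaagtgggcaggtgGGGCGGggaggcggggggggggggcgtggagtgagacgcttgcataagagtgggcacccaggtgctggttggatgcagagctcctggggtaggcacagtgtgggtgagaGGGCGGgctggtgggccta
Dazl (chr17:50293621-50293780, minus strand): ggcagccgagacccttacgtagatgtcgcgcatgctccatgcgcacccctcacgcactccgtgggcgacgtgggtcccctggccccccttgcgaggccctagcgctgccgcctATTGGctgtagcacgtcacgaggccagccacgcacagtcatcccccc
Fos (chr12:85473730-85473889, plus strand): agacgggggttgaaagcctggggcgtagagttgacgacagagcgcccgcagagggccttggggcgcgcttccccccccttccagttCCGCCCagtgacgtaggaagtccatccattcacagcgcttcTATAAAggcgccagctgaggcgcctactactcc
H2ac20 holds 2 CCAAT boxes and a TATA box that begins at base -42 from the start, and H2ac13 holds 4 CCAAT boxes. Sohlh1 holds 2 GC boxes, Dazl 1 CCAAT box, and Fos a GC box and a TATA box that begins at -33. Over the whole window of 300 bases, 250 before to 50 after the start, CCAAT was found in all 5 of the H2A promoters and in 81.4% of the 43 promoters of detected histone genes, against 38.6% of all 15208 promoters. A match is a description of the letters, not evidence of a bound factor.

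All 6 markers of the population were detected, 5 of them by regular probes. Sohlh1, a transcription factor of early germ cell differentiation in both sexes, was the brightest of the 6. It stood at 11.27, 11.33 and 11.10 on SSC replicates 1 to 3, and its other probe at 11.11, 11.07 and 10.84. Ret stood at 9.82, 9.73 and 9.91. Its other probes read 8.0 ± 0.17 and 4.71 ± 0.05, and the dimmest was not detected. The 3 replicates lay close together on each probe, while the probes of Ret lay far apart.

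Dazl, an RNA-binding protein that germ cells need in both sexes, stood at 9.39, 9.26 and 9.72, highest on replicate 3. Its other detected probe read 5.07 ± 0.01, and averaging both probes moved Dazl from percentile 88.4 of the detected genes to 66.3. Zbtb16, also known as PLZF, a repressor that maintains undifferentiated spermatogonia, stood at 8.36, 8.20 and 8.13. Etv5, a target of GDNF signalling, stood at 7.83, 7.64 and 7.38, and its other probe at 6.82 ± 0.29. On their brightest probes all 3 lay above the median level of detected genes on every SSC array.

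The markers did not all lie on the same side of FGSC. Sohlh1 stood at 13.17, 13.24 and 13.46 on FGSC replicates 1 to 3, all above every SSC array, and SSC minus FGSC was -2.06 log2 units (limma adjusted p = 1.1e-05). Dazl stood at 8.88, 8.45 and 9.42 in FGSC, and these values overlap with those of SSC. Its difference of 0.53 was not called (limma adjusted p = 0.109). It was called with replicate number as a block, under median scaling and, at 0.79, without FGSC replicate 3. The difference was -0.43 when all kept probes were averaged. Zbtb16 at 5.24 ± 0.06, Etv5 at 6.38 ± 0.08 and Ret at 4.95 ± 0.09 lay below every SSC value in FGSC, where Ret was detected on 1 of the 3 arrays. Differences between the groups were common: of all 10628 genes tested, 31.5% were called higher and 30.9% lower in SSC.

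Ddx4, the germ cell RNA helicase also called VASA, was detected at 8.75, 8.97 and 8.98 from an irregular probe, which read 8.36 ± 0.05 in FGSC. On 2 of the SSC arrays its signals had 9 or more digits. The regular probe of Ddx4 was not detected on any SSC array (4.69 ± 0.07), and the remaining probe, also irregular, was detected on 1 of them. On that probe the signals were 3.54, 3.76 and 3.72 times those implied by their own detection p-values. The presence of Ddx4 in these cells therefore rests on irregular signals.

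Genes of undifferentiated spermatogonia were detected in 25 of 31 cases, at a median of 8.03, and 16 of the 25 lay above the median of all detected genes. Uchl1, a ubiquitin hydrolase abundant in spermatogonia, was the brightest at 10.64, 10.59 and 10.55. Egr2, a transcription factor induced by GDNF, stood at 9.13, 9.19 and 9.57. The lowest detected were Sox3 (5.14 ± 0.04) and Lin28a (5.11 ± 0.15), close to the detection limit. Nanos2, an RNA-binding protein that holds stem cells in the undifferentiated state, stood at 5.96, 6.08 and 5.70. Gfra1 was not detected, with a level of 4.69 ± 0.05 from its only probe, and neither were Utf1, Eomes, Pax7, Tspan8 and Taf4b.

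For several well known stem cell genes the brightest probe was irregular. Neurog3 (9.14 ± 0.12) and Bcl6b (8.88 ± 0.15) had no other probe. Id4 stood at 8.03, 8.50 and 8.80 on its irregular probe and at 5.47 ± 0.04 on its regular one, which was still detected. Thy1, a surface protein used to enrich these cells, stood at 8.36 ± 0.16 and Cdh1, E-cadherin, at 8.43 ± 0.31, and neither was detected by its regular probe. With regular probes only, 21 of 29 genes of the list were detected, at a median of 7.37.

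**Figure D2:**
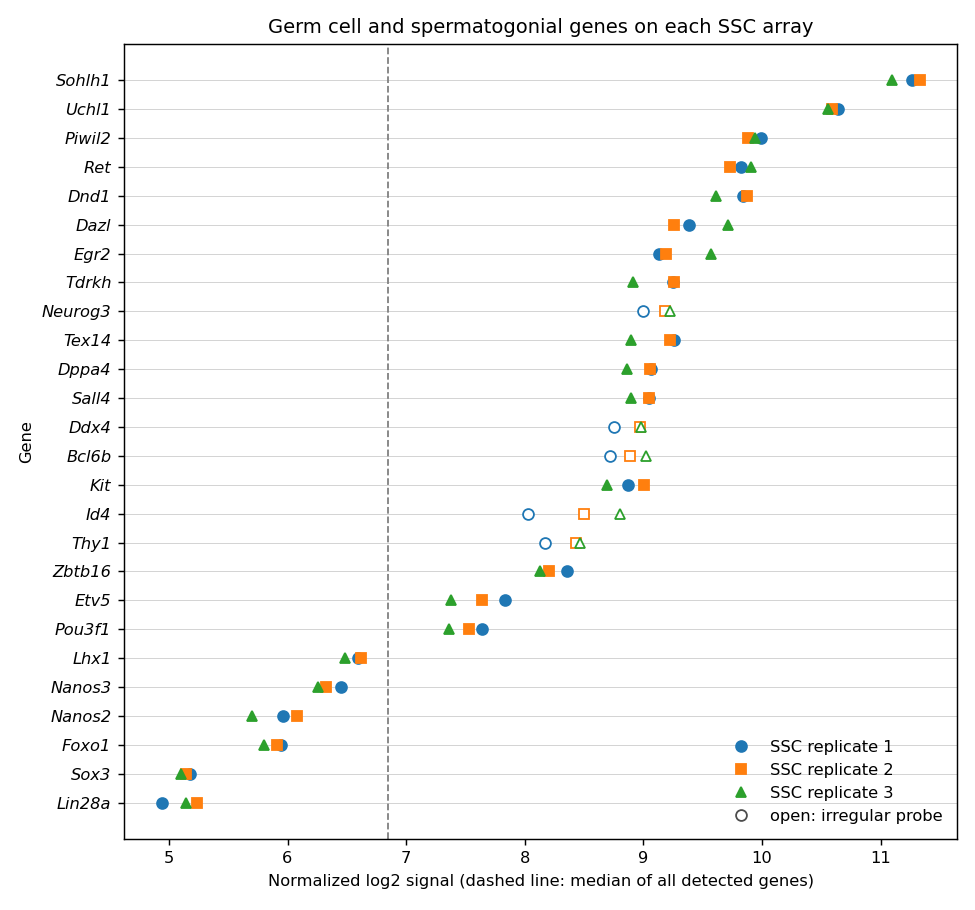
Normalized log2 signal of 26 germ cell and spermatogonial genes on each of the 3 SSC arrays, ordered by mean level, with open symbols for irregular probes. Sohlh1 lies above 11 on every array, Lin28a and Sox3 lie near 5, and 5 genes (Neurog3, Ddx4, Bcl6b, Id4 and Thy1) rest on irregular probes.

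Germ cell identity genes were detected in 16 of 23 cases, at a median of 7.85. Dnd1, which shields germ cell messages from microRNAs, stood at 9.78 ± 0.14, Tex14, a protein of the bridges between germ cells, at 9.13 ± 0.20, and Dppa4, a chromatin factor of pluripotent cells, at 9.0 ± 0.12. The lowest were Tex101, a surface protein of germ cells (6.13 ± 0.03), and Tfap2c (5.81 ± 0.39), a transcription factor of primordial germ cells. Dppa3, Prdm1 and Prdm14, which mark earlier germ cells, were not detected, nor were Tex15, Mael, Gtsf1 and Dppa2. Without irregular probes 14 of 23 were detected, at a median of 7.24.

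Markers of differentiating spermatogonia were mixed. Sohlh1, also 1 of the 6 markers of the population, was the brightest of this list at 11.23 ± 0.12. Dnmt3b, a de novo DNA methyltransferase, stood at 10.42, 10.55 and 10.50, and Kit, the receptor of differentiating spermatogonia, at 8.87, 9.0 and 8.70. The other probes of Kit read 4.99 ± 0.08, detected on 2 SSC arrays, and 4.70 ± 0.03, not detected. On its brightest probe the FGSC arrays read 11.64, 11.87 and 12.22, all above the SSC arrays, and SSC minus FGSC was -3.05 log2 units (limma adjusted p = 1.07e-05). Upp1, uridine phosphorylase, stood at 7.66 ± 0.21. Stra8, the switch to meiosis that retinoic acid induces, was not detected, and neither were Sohlh2, Dmrtb1, Dmrt1, Dnmt3a, Zfp541, Meioc and Esx1. In all 10 of 18 genes were detected.

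Later stages were faint. Of 25 genes of meiotic prophase 14 were detected at a median of 6.26, and with regular probes 12 of 24 at 5.80. The brightest, Spo11, the enzyme that breaks DNA to start recombination, read 8.55 ± 0.22 on an irregular probe and was not detected by its 2 regular probes. Tex11 followed at 7.53 ± 0.32, Syce3 at 7.21 ± 0.11 and Brca2 at 7.16 ± 0.12. The synaptonemal genes Sycp1 and Sycp3 and the recombinase gene Dmc1 were not detected. Of 21 genes of spermatocytes and spermatids 7 were detected, none above the median of detected genes, and Hspa2 was highest at 6.33 ± 0.17. Prm1, Tnp1, Tnp2 and Acr, which pack sperm DNA or build the acrosome, were not detected.

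Of 21 genes of the piRNA pathway, which silences transposons in germ cells, 15 were detected (71.4%) at a median of 7.63. From regular probes 11 of 20 were detected at 7.10. Of all genes 45.6% were detected, at a median of 6.85, so the values from regular probes lie near those of all genes. Piwil2, the PIWI protein of early germ cells, stood at 9.99, 9.88 and 9.94. Tdrkh, a Tudor protein of the pathway, stood at 9.14 ± 0.20 and the helicase gene Mov10l1 at 8.88 ± 0.08. Piwil4, its nuclear partner in fetal germ cells, was near the limit at 5.11 ± 0.03. Tdrd1 (8.46 ± 0.13) and Rnf17 (8.67 ± 0.20) were read from irregular probes, and the 2 regular probes of each were not detected. Of the 3 PIWI genes with a probe, Piwil2 alone had a level above 6.

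Genes of pluripotent cells were detected in 15 of 24 cases, at a median of 7.12, close to that of all detected genes. Sall4, which germ cells and embryonic stem cells share, stood at 9.04, 9.05 and 8.89, Klf4 at 8.73 ± 0.09 and Klf2 at 8.59 ± 0.11. Pou5f1 read 7.96 ± 0.12 on an irregular probe and 5.03 ± 0.04 on its regular probe. The core factors Nanog and Sox2 were not detected, nor were Zfp42, Tdgf1 and Fgf4. Of 19 oocyte genes 6 were detected at a median of 5.45. The highest were Nlrp14 (7.0 ± 0.10) and Tcl1 (6.64 ± 0.36), and Zp1, Zp2, Zp3, Gdf9, Bmp15 and Nobox were not detected.

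Among growth factor receptors 18 of 31 were detected. The brightest was Acvr2b, an activin receptor, at 10.14, 10.21 and 10.18, followed by Ret, Tgfbr1 (9.64 ± 0.12) and Kit. Of the 4 co-receptor genes of RET only Gfra3 was detected, near the limit at 5.14 ± 0.18. Fgfr1, Fgfr3 and Fgfr4 were not detected. Among surface and adhesion genes, 23 of 34 were detected, led by the tetraspanin genes Cd81 (11.26 ± 0.10) and Cd151 (10.21 ± 0.04). Nt5e, the ectonucleotidase CD73, stood at 9.41, 9.60 and 9.69, and no FGSC array detected it. Itgb1, an integrin subunit that stem cells use to hold on to the niche, read 8.58 ± 0.04 on an irregular probe and 6.78 ± 0.07 on its regular one.

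Immediate early genes, which respond to growth factors and to stress within minutes, were among the bright groups. Of 35 genes 29 were detected, at a median of 8.09, and 24 lay above the median of detected genes, against 50% of all. Fos, part of the AP-1 transcription factor, stood at 11.41, 11.35 and 11.89, against 5.54, 5.18 and 5.24 on FGSC replicates 1 to 3. Junb, its partner, stood at 11.12, 11.12 and 11.28. Dusp6, a phosphatase induced by ERK signalling, stood at 10.64 ± 0.07 and Zfp36, which destabilises messages, at 10.61 ± 0.11. Every SSC value of these 4 genes lay above every FGSC value. They were named as the highest of the list in SSC, which favours such a separation. Of all genes tested, 31.5% were called higher in SSC. The median of the list was 7.71, 7.96 and 8.67 on SSC replicates 1 to 3, highest on replicate 3.

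Of 29 immediate early genes tested against FGSC, 22 were higher in SSC and 2 lower, where 62.4% of all 10628 genes tested were called, 31.5% higher and 30.9% lower in SSC. Of 29 chaperone and heat shock genes tested, 7 were higher, 3 lower and 19 not called. Of 35 chaperone genes 27 were detected, at a median of 8.29. Hspa8, the constitutive HSP70, stood at 12.35 ± 0.04, Hspa9 of the mitochondrion at 11.28 ± 0.06 and the chaperonin gene Cct6a at 11.28 ± 0.07. The list's median was 7.94, 8.11 and 9.01 on replicates 1 to 3. On both lists SSC replicate 3 had the highest median.

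Genes of mitochondrial energy production were bright. Of 79 genes of oxidative phosphorylation 64 were detected, with a median of 10.20, at percentile 94.1 of the detected genes. Atp5b stood at 13.29, 13.21 and 13.17, Atp5g3, a membrane subunit of the ATP synthase, at 12.32 ± 0.07, and Cox5b and Cox4i1 of cytochrome c oxidase at 12.07 ± 0.05 and 11.79 ± 0.05. The lowest were Atp5k (5.38 ± 0.06) and Cox6a2 (5.04 ± 0.09), the latter a muscle form. Glycolysis genes had a median of 7.49 with 18 of 23 detected. Gapdh (11.03 ± 0.03), Aldoa (9.63 ± 0.17), Pkm (9.62 ± 0.12) and Ldha (9.47 ± 0.05) led them. Pfkp and Ldhb both stood at 5.17, near the limit.

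Protein turnover and RNA processing were bright as well. Of 39 proteasome genes 29 were detected, at a median of 10.27, with Psmb4 at 12.32 ± 0.04, Psmd1 at 11.67 ± 0.08, and Psma5 and Psma2 at 11.66 and 11.65. Of 48 splicing genes 38 were detected, at a median of 9.90, led by Hnrnpc (12.41 ± 0.08), Srsf2 (12.14 ± 0.07), Hnrnpab (11.97 ± 0.12) and Snrpd2 (11.46 ± 0.11). Splicing genes were higher in SSC than in FGSC in 22 of 39 tested and lower in 2, where 31.5% of all genes tested were higher and 30.9% lower. The other bright lists gave different splits: proteasome genes were higher in 11 and lower in 6 of 31, ribosomal proteins in 14 and 7 of 53, redox genes in 8 and 5 of 20, translation factors in 9 and 15 of 50, and oxidative phosphorylation genes in 12 and 25 of 70. Translation factors spread from Eef1a1 down to Eif2ak3 at 5.05 ± 0.11, with 47 of 60 detected at a median of 8.40. Among redox genes 19 of 23 were detected at a median of 9.24, with the peroxiredoxin genes Prdx1 (11.80 ± 0.21) and Prdx2 (11.62 ± 0.10) and the superoxide dismutase gene Sod1 (11.63 ± 0.13) on top.

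**Figure D3:**
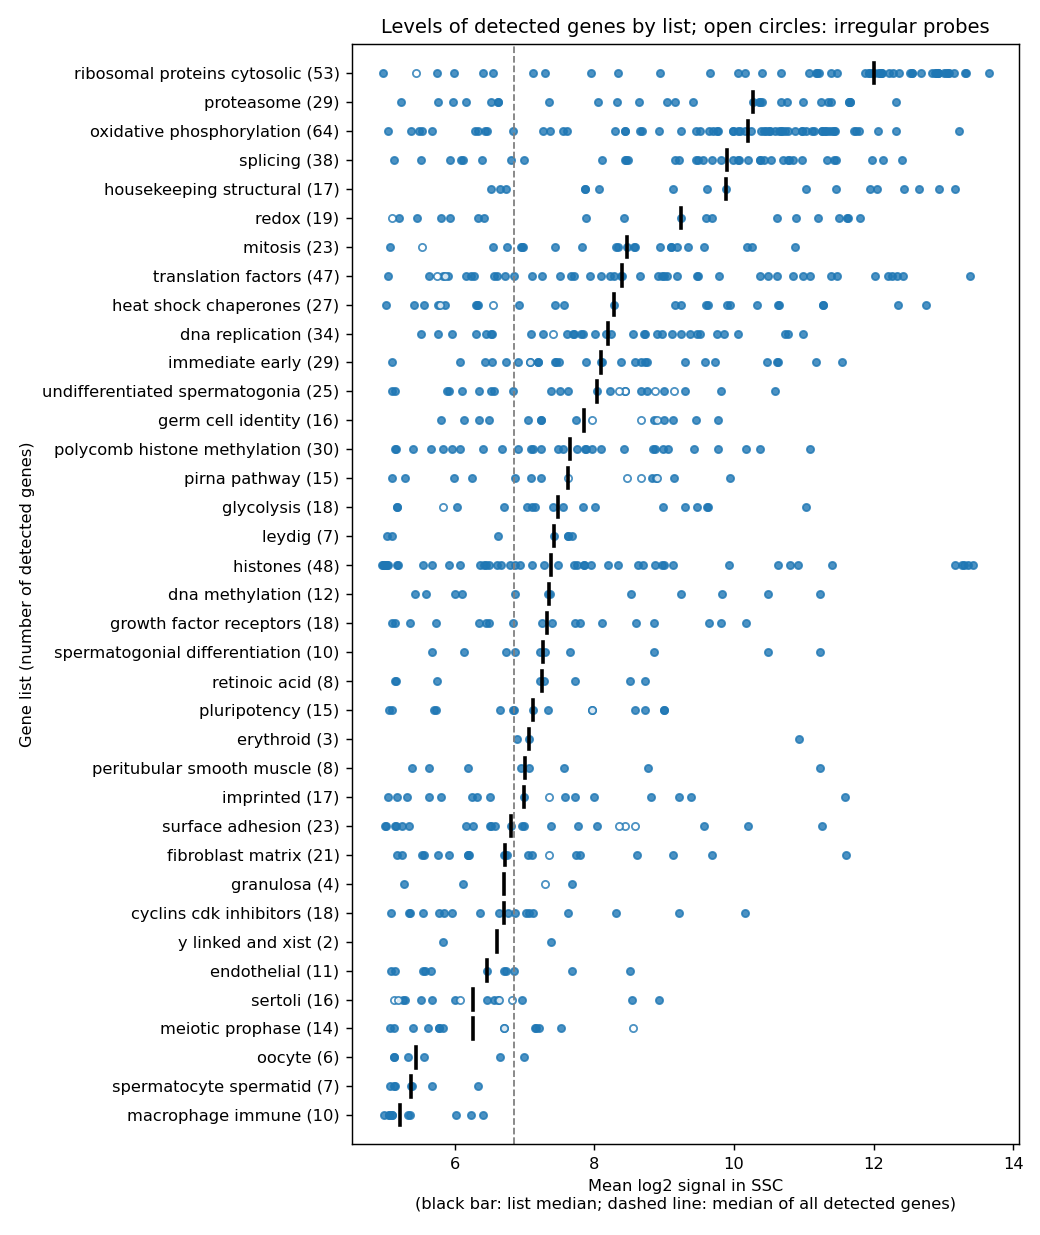
Mean log2 signal in SSC of every detected gene of 37 gene lists, ordered by the list median (black bar), with open circles for irregular probes and a dashed line at the median of all detected genes, 6.85. Ribosomal proteins have the highest median (percentile 99.2), proteasome, oxidative phosphorylation and splicing genes follow, and oocyte, spermatid and macrophage genes lie lowest at 5.45, 5.38 and 5.22.

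Genes of DNA replication (82.9%) and mitosis (69.7%) were detected in larger shares than all genes (45.6%). Which cells of the preparations gave this signal was not tested. Of 41 DNA replication genes 34 were detected at a median of 8.20, with the helicase subunit genes Mcm4 (10.99 ± 0.07) and Mcm5 (10.73 ± 0.13) and the single-strand binding gene Rpa1 (10.77 ± 0.18) highest. Pcna, the sliding clamp of every replicating cell, was not detected by its probes. Of 33 mitosis genes 23 were detected at a median of 8.46, led by Prc1 (10.87 ± 0.03), a spindle midzone protein, Cdc20 (10.26 ± 0.16) and Cdca8 (10.19 ± 0.06). Among cyclins, their kinases and inhibitors 18 of 26 were detected, with Cdk2 at 10.16 ± 0.24, Cdkn1c, a CDK inhibitor, at 9.22 ± 0.04 and Cdk1 at 8.32 ± 0.07. Against FGSC, 9 of 36 replication genes tested were higher and 10 lower, and 8 of 25 mitosis genes were higher and 10 lower, where 31.5% of all genes tested were higher and 30.9% lower.

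Chromatin regulators were broadly present. Of 33 polycomb and histone methylation genes 30 were detected, at a median of 7.65, with Suz12 and Mtf2 of the PRC2 complex at 11.08 ± 0.09 and 10.37 ± 0.07, the demethylase gene Kdm1a at 10.17 ± 0.02 and the methyltransferase gene Ehmt2 at 9.77 ± 0.02. Rnf2, Jarid2 and Suv39h2 were not detected. For DNA methylation 12 of 16 genes were detected. Trim28, a corepressor that guards imprints, was brightest at 11.23 ± 0.07, followed by Dnmt3b, Uhrf2 (9.82 ± 0.21) and Uhrf1 (9.24 ± 0.34). Dnmt3l, the partner of the de novo enzymes in male germ cells, was close to the limit at 5.44 ± 0.08.

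Imprinted genes were detected in 17 of 25 cases, at a median of 6.99. Igf2, the fetal growth factor, stood out at 11.53, 11.61 and 11.61, against 6.84, 6.78 and 7.17 on the FGSC arrays. Peg3 stood at 9.38 ± 0.09, Cdkn1c at 9.22 ± 0.04 and Grb10 at 8.82 ± 0.26, and Meg3, Peg10 and Plagl1 were not detected. Of 19 genes of retinoic acid metabolism and response 8 were detected. Rxrb (8.73 ± 0.06), a retinoid X receptor, and Aldh1a1 (8.51 ± 0.73), which makes retinoic acid, led them, and the receptors Rara, Rarb and Rarg were not detected.

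Genes of testicular somatic cells were also detected in the SSC arrays, in shares that for several lists lay near the 45.6% of all genes. Of 19 Sertoli cell genes 16 were detected (84.2%) at a median of 6.27, and from regular probes 11 of 14 at 6.46. Gdnf stood at 9.0, 9.05 and 8.74 and Amh, the anti-Müllerian hormone, at 8.49, 8.57 and 8.56, and neither was detected on any FGSC array. Gata1, Rhox5 and Nr5a1 were not detected. The other probe of Gdnf was not detected, at 4.65 ± 0.04. Over all 14 Sertoli genes with a regular probe, whether detected or not, the summed linear signal was 1332 to 1423 on the SSC arrays and 186 to 216 on the FGSC arrays. Without Gdnf it was 837 to 982 and 173 to 203.

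Peritubular and smooth muscle genes were detected in 8 of 14 cases (57.1%), against 45.6% of all genes. Mylk, the myosin light chain kinase, stood at 11.14, 11.29 and 11.26, rank 173, next to Sohlh1, and Myl9 at 8.77 ± 0.12. Acta2 was at 7.07 ± 0.35, and Tagln and Cnn1 were not detected. Of 23 fibroblast and matrix genes 21 were detected (91.3%). Sparc, a matrix glycoprotein, stood at 11.78, 11.63 and 11.39, Lgals1 at 9.68 ± 0.07 and Mgp at 9.13 ± 0.08. Col5a1 and Vim were near the limit at 5.25 and 5.18. Summed in the same way over all 14 peritubular genes, the signal was 3234 to 3452 on the SSC and 480 to 563 on the FGSC arrays, and without Mylk it was 965 to 987 and 421 to 501. Over the 23 matrix genes it was 5981 to 6376 and 2295 to 2743, and without Sparc 2879 to 3312 and 2085 to 2415.

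Leydig cell genes were detected in 7 of 12 cases (58.3%), against 45.6% of all genes. Thbs2 stood at 7.68 ± 0.17. Hsd17b3 and Cyp17a1, enzymes of testosterone synthesis, stood at 7.63 ± 0.17 and 7.43 ± 0.16. Star lay at the limit with 5.03 ± 0.06. Cyp11a1, which starts steroid synthesis, was not detected, and the summed signal of all 12 genes was 796 to 937 in SSC and 174 to 191 in FGSC. Endothelial genes were detected in 11 of 16 cases (68.8%), with Robo4 (8.51 ± 0.05) highest and Pecam1, Kdr, Tek and Tie1 not detected. Macrophage and immune genes were the faintest list, with 10 of 17 (58.8%) detected at a median of 5.22. Their maximum was 6.40 for Laptm5, and Ptprc, Adgre1 and Cd14 were not detected. The summed signal of all 16 endothelial genes was 1051 to 1124 on the SSC and 322 to 358 on the FGSC arrays, and that of all 17 macrophage genes 380 to 409 and 245 to 255. Of 7 erythroid genes 3 were detected (42.9%). Hba-a1, alpha-globin, stood at 10.96, 10.90 and 10.92 in SSC and at 9.75 ± 0.20 in FGSC. Hba-a1 and Hba-a2 are near-identical copies. The summed signal of all 7 genes was 2172 to 2241 in SSC and 971 to 1447 in FGSC. Without Hba-a1 it was 247 to 284 and 234 to 464, and these ranges overlap. Granulosa cell genes were detected in 4 of 9 cases (44.4%) and Foxl2 was not. Over the 8 granulosa genes with a regular probe the sum was 216 to 241 in SSC and 324 to 384 in FGSC. Without Irx3 it was 193 to 219 and 165 to 221, and these ranges overlap. The germ cell lists were summed in the same way. The 29 undifferentiated spermatogonia genes gave 5794 to 6351 in SSC and 6683 to 9265 in FGSC. Without Uchl1 they gave 4271 to 4865 and 1889 to 1975. The 23 germ cell identity genes gave 3745 to 3968 and 15588 to 16399, and without Dppa3 3729 to 3952 and 6265 to 8485. The part of somatic cells in the SSC levels was not tested, and the labels do not say how pure the preparations were.

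Of 10 Y-linked and X inactivation genes 2 were detected. Usp9y stood at 7.28, 7.41 and 7.44 and Eif2s3y at 5.41, 5.55 and 6.53, both detected on no FGSC array. Xist was not detected by any of its 4 probes, nor was Sry. On the X chromosome 301 of 710 genes, or 42.4%, were detected. X-linked genes made up 3.00% of the 100 highest genes, 2.67% of the next 900, 2.93% of the next 3000 and 3.97% of the remaining detected genes, against 3.74% of all genes with a probe.

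Most genes had nearly the same level on all 3 SSC arrays. Across the detected genes the correlation between 2 arrays was 0.982 to 0.993, which is across genes, and genes are not independent replicates. The median SD over the arrays was 0.118 log2 units, 0.130 for genes below the median level and 0.108 for genes above it. The 95th percentile was 0.371, and 212 genes (2.44%) ranged over more than 1 unit. The deviations were uneven. Each array was compared with the mean of the other 2. On SSC replicate 3, 112 genes lay more than 1 unit above that mean and 16 more than 1 unit below. Replicate 1 had 7 and 34, and replicate 2 had 11 and 23.

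The 10 genes of regular probes with the largest SD above the median level were ATP6, Prss35, Ccn2, Marcksl1, Hsp90aa1, Scara5, Ptpre, Pabpc1, Ftl1 and Dazap2. ATP6, a mitochondrial subunit of the ATP synthase, read 7.95, 7.67 and 10.40 on replicates 1 to 3. Hsp90aa1, the inducible HSP90, read 6.82, 6.85 and 9.01, and Pabpc1, the poly(A)-binding protein, 7.52, 7.63 and 9.29. All 10 were highest on replicate 3. Of the 128 genes that deviated by over 1 unit on replicate 3, 27 could also be read from another detected probe. On that probe the deviation had a median of -3.1% of its size on the brightest probe, so it did not recur there.

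**Figure D4:**
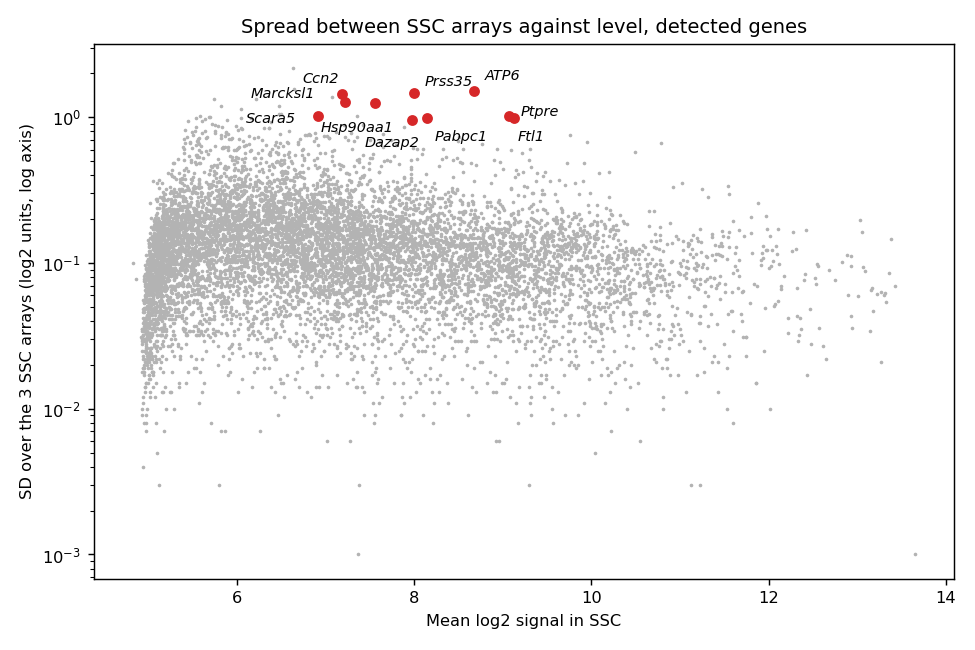
SD over the 3 SSC arrays (log2 units, log axis, values below 0.001 drawn at 0.001) against mean log2 signal for all detected genes, with the 10 most variable genes above the median level in red. Most genes lie near an SD of 0.1, and the red genes lie near 1 or above, from 0.96 for Dazap2 to 1.51 for ATP6.

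Promoters of detected and undetected genes differed in base composition. Of the detected genes 7078 had a promoter in the RefSeq table. The median ratio of observed to expected CpG was 0.84 for the 100 highest genes, 0.83 for the next 900, 0.81 for the next 3000 and 0.75 for the rest, and 0.34 for genes that were not detected. The GC box was found in 63.4%, 70.4%, 69.2% and 65.4% of these 4 classes and in 34.9% of promoters of undetected genes, against 49.9% of all. The TATA box had another distribution, with 15.9% of the 100 highest genes, 4.7%, 3.9% and 4.2% of the other classes and 11.5% of the undetected genes, against 8.2% of all. CpG content and the GC box share base composition, so they are not separate observations.

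Gene groups differed in motifs. The ETS site (CCGGAAG, both strands) was found in 40.9% of the 44 promoters of detected ribosomal protein genes, against 19.0% of the promoters of all detected genes, 22.0% of the 100 highest, 25.9% of the next 900 and 12.7% of all promoters. The YY1 site (GATGGCG, both strands) was found in 17.0% of the 53 promoters of oxidative phosphorylation genes, against 7.1% of the promoters of detected genes, 4.9% of the 100 highest, 9.7% of the next 900 and 4.8% of all. The TATA box was found in 41.9% of histone promoters and in 28.0% of the 25 promoters of immediate early genes, Fos among them, against 4.3% of the promoters of detected genes.

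**Figure D5:**
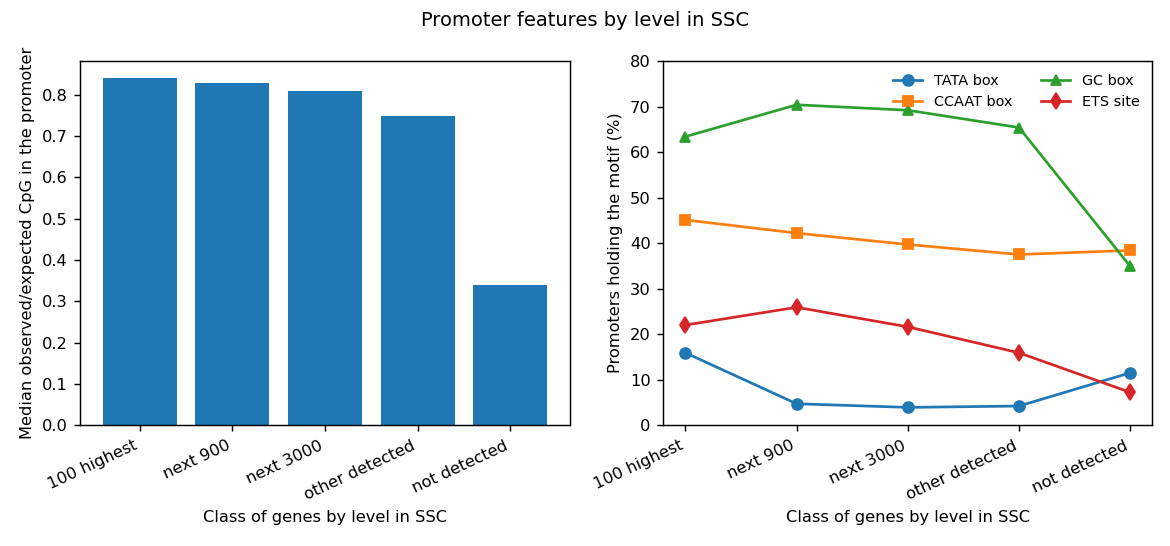
Median observed over expected CpG (left, bars from 0) and the share of promoters that hold each of 4 motifs (right, percent) for SSC genes by rank class and for undetected genes. CpG falls from 0.84 to 0.75 over the detected classes and to 0.34 in undetected genes, and the TATA box is most frequent at both ends, with 15.9% and 11.5%.

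Most genes detected in SSC were detected in FGSC too. FGSC had 7547 detected genes by the same rule, and 6909 genes were detected in both, which is 79.5% of the SSC and 91.5% of the FGSC genes. Of the 8689 SSC genes, 1149 were detected on no FGSC array by the SSC probe. Of the 7547 FGSC genes, 400 were detected on no SSC array by the FGSC probe. FGSC arrays detected fewer probes, 12832 to 14311 against 15300 to 16437 on the SSC arrays. Each probe was chosen as the brightest in its own group, which favours such genes. Of the 100 highest genes 56 were shared. The groups differ in organ, sex and age at once, and these cannot be told apart.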

How the data were processed

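RNA of 3 SSC and 3 FGSC samples was hybridised to Illumina Mouse WG-6 v2.0 arrays, with groups taken from the sample titles. The authors deposited a table of mean signal intensity and detection p-value for 45281 probes, not normalized per the file headers, and a table of processed intensity, used here only as an alternative after taking log2. Of tools, the submitters' processing notes list lumi alone. Genome build, slide and scan batch are not given in the sources used here.

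Background was corrected from the detection p-values with an offset of 16, followed by quantile normalization and log2 transformation, with the neqc function of limma 3.58.1 in R 4.3.3. The deposited intensity values carry no counts, so the number of arrays limits the precision. Of the probes, 34885 had 1 gene symbol, 18 several and 10378 none. Symbols were updated through a RefSeq table of GRCm38.p6, with 34807 matched by gene ID, 11 by transcript and 67 kept as they were. The highest mean SSC signal among probes detected at 0.01 on all 3 arrays gave the gene's level. H13, which matches the histone name pattern but encodes no histone, was left out of that list.

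SSC minus FGSC was fitted with lmFit and eBayes in limma on 10628 genes. Probes needed detection p-values under 0.05 on 3 or more arrays, and the probe of a gene with the largest 6-array mean was taken. The p-values were adjusted by Benjamini-Hochberg over all genes tested, and genes under 0.05 were called. The fit was tested on simulated data. Summed signals of marker lists took, for each gene, the regular probe with the highest 6-array mean, with the offset subtracted.

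Genes named were the 25 highest, the 6 markers, up to 4 highest and 2 lowest detected genes of each list, undetected list members, the 10 most variable genes and the 6 at the detection limit. Nanos2, Bcl6b, Id4, Thy1, Cdh1, Tdrd1, Rnf17, Pou5f1, Itgb1, Dnmt3l, Gstm1, Acta2, Eif2s3y, Gfra3 and the genes of the plot by array were chosen after their values were seen. Members and lists were chosen with earlier results of these data known. Promoters, 250 bases before to 50 after the start, came from RefSeq, and the promoter listed at the top was used where a gene had several.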

Additional observations from a re-analysis of the deposited data

How the results depend on the processing

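The number of genes detected was 9502 with a detection p-value under 0.05, 9173 with at least 2 of 3 arrays and 8553 without irregular probes, and 8805 to 8933 when 1 SSC array was left out, against 8689. Of the 100 highest genes, 70 were shared when detected probes were averaged and 97 to 98 when an array was left out. All 100 were shared with SSC arrays alone, an offset of 50, no background correction, the authors' processed values and no irregular probes. Median percentiles of gene lists moved by over the spread between replicates in 67 pairs of list and setting and by less in 266, for meiotic genes between 26.7 and 41.8 and for chaperones between 72.1 and 85.2.

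Of SSC minus FGSC calls there were 6632, 3343 higher and 3289 lower in SSC, and 4396 with detection under 0.01 on all 6 arrays, where 6896 genes were tested, 1931 higher and 2465 lower. Median scaling gave 4931 calls, 3002 higher and 1929 lower, with the median of all genes at 0.12. Leaving out an array gave 5781 to 6993. Averaging the kept probes reversed H2ac20 to -0.07 and Rpl38 to -0.31, and the cause was not tested. Replicate numbers are shared between groups. Same-numbered arrays deviated from their group means with correlations of -0.2, -0.0502 and -0.222, and other pairs with -0.252 to 0.322. Deviations from a mean of 3 arrays offset each other, so these values cannot tell whether same-numbered arrays share more than a number. The fit with the replicate block called 5928 genes.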
